A study of Mus musculus with 6 samples.

Results

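Integrins and the surface ligands they bind were followed in mouse bone marrow-derived macrophages (BMDMs) by 10 genes: the ligands Icam1 and Vcam1, the integrin alpha subunits Itgam, Itgax, Itgal, Itga4, Itga5 and Itgav, and the beta subunits Itgb2 and Itgb1. They were chosen by name, with earlier results of these data known, so their counts are no independent contrast with those over all genes. Every array spot carrying one of these gene names, other than control spots, was taken, which gave 10 of the 35079 gene names on the array and 18 of its 55681 probes.

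The series asked how a small-molecule inhibitor of the deubiquitinase USP7 alters gene expression induced by lipopolysaccharide (LPS), the bacterial ligand of Toll-like receptor 4. All cells were wild type, from the marrow of female C57BL/6 mice (6 to 8 weeks old per the labels; the study's methods give an older range and print the strain as C57BL6/J), and were matured for 7 days in medium conditioned by L929 cells. Total RNA was labelled with Cy3 and hybridized to 6 single-colour oligonucleotide arrays, 2 per group, with the 2 samples of a group taken from independent experiments. The untreated group received neither agent. The LPS group received LPS for 4 h; its dose is given as 100 ng per ml in the series design and as 100 ng per µl in the treatment protocol. The LPS+inhibitor group received 10 µM of the USP7 inhibitor for 30 min and then LPS for 4 h. Cells given the inhibitor without LPS were not analysed here, and whether untreated and LPS cells received the inhibitor's solvent was not stated in the sources used here.

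Integrins are heterodimers of an alpha and a beta subunit that tether leukocytes to other cells and to extracellular matrix. Itgb2 encodes CD18, which pairs with Itgal (CD11a), Itgam (CD11b) or Itgax (CD11c), and these dimers bind ICAM family ligands; Itgb1 pairs with Itga4 to bind VCAM1 and fibronectin, and with Itga5 or Itgav to bind matrix proteins. ICAM1 and VCAM1 are immunoglobulin-superfamily proteins best known on inflamed endothelium, and activated macrophages display them too.

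Signal is given below as the normalized linear intensity of a probe on each array, in arbitrary units, and changes as differences of log2 intensity. A change was called at a Benjamini-Hochberg adjusted p under 0.05 in a limma fit over 55680 probes, and a gene was counted by its brightest probe. With 2 arrays per group the precision is limited, and an exact permutation test of 2 against 2 arrays cannot go below p = 0.333. The brightest probe was well above background on all 6 arrays for 9 of the 10 genes; the exception was Vcam1, whose untreated arrays were both too dim.

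The macrophage label was checked first. All 11 macrophage markers measured were well above background on every array, Csf1r being the brightest, and their summed intensity was 766562 and 739056 untreated, 759891 and 773239 with LPS, and 649633 and 603930 with LPS+inhibitor, the lowest 2 of the 6. Most of that drop from LPS was in Cd14, which LPS itself raised: it read 52330 and 57747, then 173644 and 181410, then 65046 and 78570 (log2 change 1.69 with LPS, adjusted p = 0.00518). From LPS to LPS+inhibitor the median log2 change of these markers was -0.57, and Cd14 and Fcgr1 were called lower, at -1.31 and -1.60 (adjusted p = 0.0184 and 0.0317); the part of this in the lower values of Icam1 and the integrin genes was not tested. The endothelial markers Emcn, Tek and Tie1 were not well above background on any array, nor were the fibroblast markers Col1a1, Col3a1, Lum and Pdgfra. In the same lists Kdr was well above background on all 6 arrays, Dcn on 5 and Pdgfrb on 4, and Siglech, of the dendritic cell list, read from 24732 to 51331.

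LPS raised most of these genes. Against untreated cells, 6 of the 10 were higher (Icam1, Vcam1, Itgal, Itga4, Itga5 and Itgav), where 7.95% of all genes were called higher, and 1 was lower (Itgam), where 12.7% of all genes were called lower. Among the 18436 genes whose brightest probe was clear of background on the 2 arrays of any group, as all 10 were, those shares were 13.8% and 23%, or 36.8% together. Over all genes they were 20.7% together, and over all probes 7.09% higher and 17.8% in either direction. The median log2 change was 1.90 over the 10 genes and 0.00 over all genes. Leaving out 1 array reduced the number of higher genes to 4 without untreated replicate 1 and to 3 without untreated replicate 2, LPS replicate 1 or LPS replicate 2, and Itgam was then called in none of these 4 fits. Scaling each array to its 75th percentile in place of quantile normalization put the median log2 change of all probes at 0.51. It moved the share of higher calls among all calls from 39.9% to 79.3%. Of the 55680 probes, 21768 were then called higher and 5669 lower. The number of higher genes among the 10 was then 7, of lower genes 0.

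Pretreatment with the inhibitor left 4 of the 10 genes lower than with LPS alone (Icam1, Itgal, Itga4 and Itgav), where 4.27% of all genes were called lower, and 0 higher, where 5.51% of all genes were called higher (9.78% together). Among the 18436 genes with clear signal the lower and higher shares were 7.29% and 9.73% (17% together), and over all probes 3.79% and 4.66% (8.45% together). The median log2 change was -0.68 over the 10 genes and 0.00 over all genes. These 4 calls used the spread pooled over all 6 arrays. Replicates differed most with LPS+inhibitor, where the SD of their log2 difference over 20705 probes was 0.395. It was 0.342 with LPS and 0.285 untreated, and how this bears on the calls was not tested. With only the LPS and LPS+inhibitor arrays in the limma fit no probe on the array passed the threshold, the smallest adjusted p being 0.0561. At an unadjusted p under 0.05 in that fit, 5 of the 10 genes were lower and 1 higher. Of all 55680 probes, 5206 were lower and 6051 higher at the same limit. The number of lower genes was also 0 without either untreated array or either LPS array, and 3 without either LPS+inhibitor array.

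Against untreated cells, LPS+inhibitor cells had 4 genes higher (Icam1, Vcam1, Itga5 and Itgav), where 6.14% of all genes were called higher, and 0 lower, where 8.71% were (14.9% together). Among genes with clear signal these shares were 10.8% and 15.5% (26.4% together), and over all probes 5.65% and 7.34% (13% together). The count was 2 with only these 2 groups in the fit, and 2 when either untreated or either LPS array was left out. The 3 comparisons share arrays, so their values are set side by side for each gene and not correlated.

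**Figure D1:**
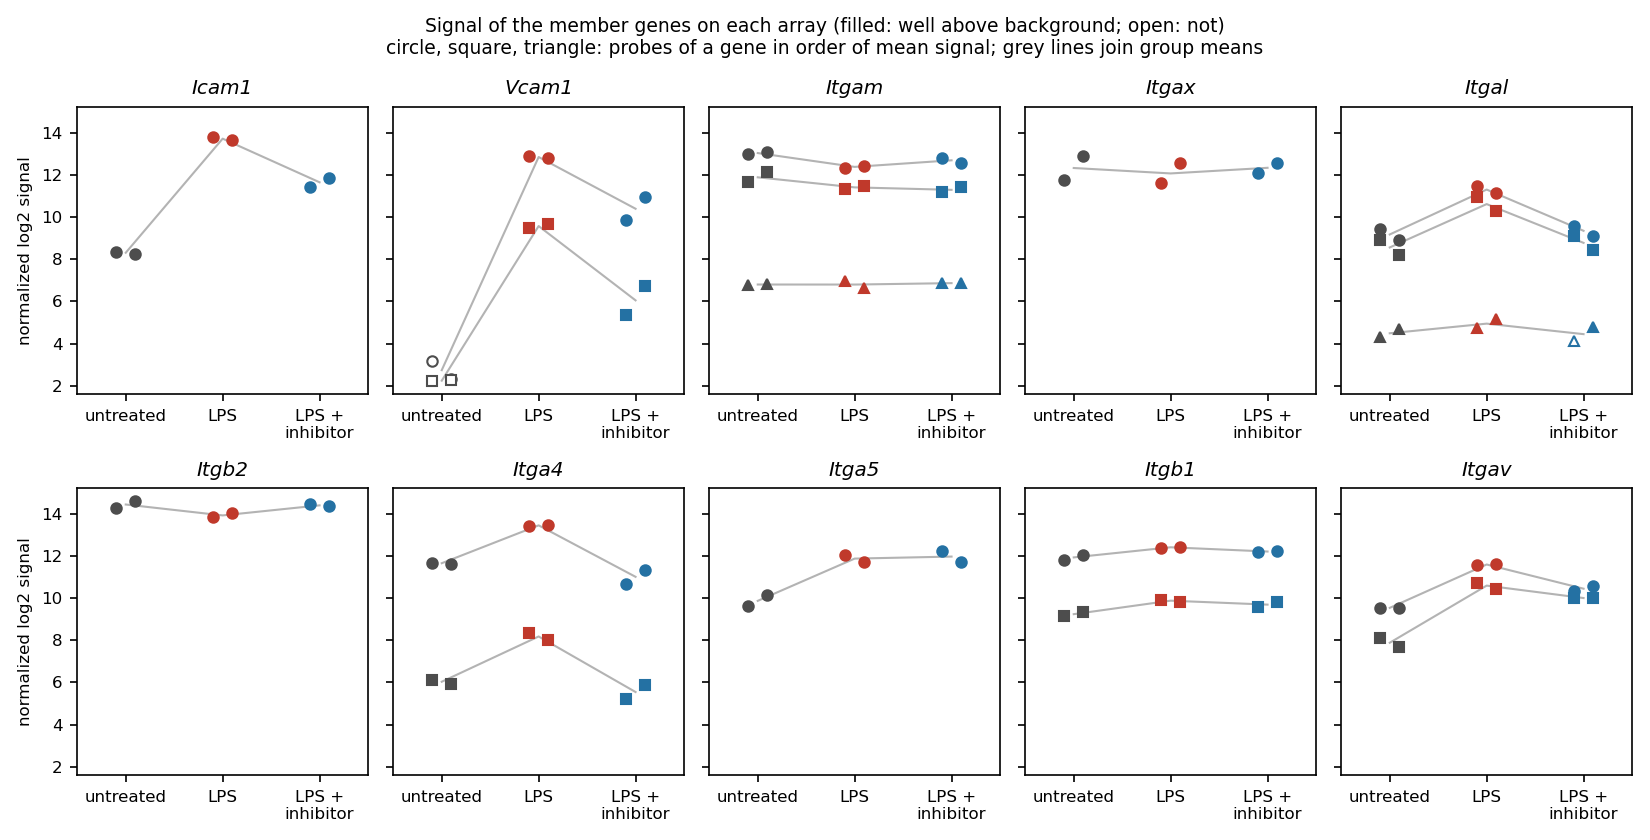
Normalized log2 signal (vertical axis) of the 18 probes of the 10 genes on each of the 6 arrays; each panel is a gene, each point an array, each symbol shape a probe, and grey lines join group means. Filled points were well above background and open points were not; Icam1, Vcam1, Itgal, Itga4 and Itgav peak in the LPS group, Itga5 stays high with the inhibitor, and Itgb2 and Itgb1 move little.

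Of the ligands, Icam1 read 329.8 and 305 in the untreated arrays, 14372 and 12763 with LPS, and 2759.6 and 3768 with LPS+inhibitor. The 3 groups did not overlap, and the inhibitor group lay between the others. Mean log2 signal was 8.31 ± 0.08 untreated, 13.73 ± 0.12 with LPS and 11.65 ± 0.32 with LPS+inhibitor (SD, n = 2). LPS raised Icam1 42.7-fold, a log2 change of 5.42 (95% confidence interval 4.91 to 5.92, adjusted p = 0.00258). With the inhibitor it fell by 2.07 log2 units from the LPS level (adjusted p = 0.0168), and stayed 10.2-fold above untreated cells (adjusted p = 0.00591). The rise with LPS and the excess over untreated cells passed the threshold in all 13 alternative settings; the fall passed in 8 of 13, with adjusted p from 0.000485 to 0.0702. It did not pass without either untreated array or either LPS array, or with only the 2 groups.

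The Icam1 probe lies at chr9:20832290-20832349 of mm9 on the plus strand, and the sequence that captured these values is printed with that of the dimmer Vcam1 probe, at chr3:115828953-115829012 on the minus strand. Each array carries these 60-base strands, and what they bind is the labelled copy of the transcript.
Icam1 A_52_P613241: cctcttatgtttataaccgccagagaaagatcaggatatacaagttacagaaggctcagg
Vcam1 A_52_P520495: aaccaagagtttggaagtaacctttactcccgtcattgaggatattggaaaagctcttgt

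Vcam1 could not be told from background on these arrays before stimulation. Its brighter probe, A_51_P210956, read 9.03 and 4.92 in untreated cells, neither well above background, 7589.5 and 7222 with LPS, and 928 and 1962 with LPS+inhibitor. The second probe, A_52_P520495, read 4.67 and 4.76, then 709 and 823, then 41.1 and 106.7. On both probes all LPS arrays were above all LPS+inhibitor arrays, and replicate 1 was the lower of the 2 inhibitor arrays. Since untreated cells give only a bound, the rise is a minimum, taken against each untreated array's own detection floor, its lowest clearly detected signal. LPS raised the brighter probe at least 492-fold (adjusted p = 0.00331) and the second at least 50.8-fold (adjusted p = 0.0047).

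The inhibitor's effect on Vcam1 was called on the second probe and missed the threshold on the brighter one. The log2 change from LPS was -3.53 (95% confidence interval -4.89 to -2.17, adjusted p = 0.0338) on A_52_P520495 and -2.46 (-3.82 to -1.10, adjusted p = 0.067) on A_51_P210956. Between arrays of the same number the differences were -4.11 and -2.95 on the former, and -3.03 and -1.88 on the latter. The brighter probe passed under normexp background correction, in the deposited table and with dim probes left out (adjusted p 0.00362, 0.0135 and 0.015), and the range over all 13 alternatives was 0.00362 to 0.214. The second probe no longer passed with the replicate number in the fit (adjusted p = 0.0504), with only the 2 groups, or without either untreated or either LPS array. LPS+inhibitor cells still exceeded untreated cells at least 89.7-fold on the brighter probe (adjusted p = 0.00693) and at least 4.40-fold on the other (adjusted p = 0.0203). The latter call was lost without either untreated or either LPS array and with only the 2 groups compared, with adjusted p from 0.0625 to 0.104.

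Among the alpha subunits that pair with Itgb2, Itgal was the one that rose with LPS. Its brightest probe, A_51_P466378, read 689.5 and 486 without treatment, 2884 and 2234 after LPS alone, and 763 and 559 when the inhibitor came first. The LPS arrays stood apart from the other 4, and the untreated and inhibitor arrays overlapped. LPS raised it 4.38-fold (log2 change 2.13, SE 0.28, adjusted p = 0.0155). With the inhibitor it fell by 1.96 log2 units (adjusted p = 0.0343), and the difference from untreated cells was 0.17 (95% confidence interval -0.59 to 0.94, adjusted p = 0.822).

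A second Itgal probe, A_55_P2184601, gave log2 changes of 2.06 with LPS (adjusted p = 0.044) and -1.84 with the inhibitor (adjusted p = 0.0843), the latter not called. The first lost its call in 7 of the 13 alternatives, when any 1 array was left out or only the 2 groups were compared (adjusted p from 0.0741 to 0.16). The second was called in 4: normexp, the deposited table, dim probes left out, and the replicate number in the fit (adjusted p 0.0177, 0.0451, 0.021 and 0.0362). The remaining one, A_55_P2184606, was dim, at 17.3 to 35.3 on the 6 arrays and well above background on 5 of them, and was called in no comparison. It matches a different transcript accession from the other Itgal probes and maps 2449 bases before the brightest one. For the brightest probe the rise with LPS lost its call without untreated replicate 2, LPS replicate 1 or LPS replicate 2 (adjusted p 0.0704, 0.0755 and 0.0535). Its fall with the inhibitor lost the call when any 1 of the 6 arrays was left out, and over the 13 alternatives its adjusted p ran from 0.00383 to 0.128. The A_55_P2184601 sequence, at chr7:134477064-134477123 of mm9 on the plus strand, is shown because it tracks the brightest probe at a neighbouring position.
Itgal A_55_P2184601: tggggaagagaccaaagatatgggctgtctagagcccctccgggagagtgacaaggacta

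Itgam, the CD11b chain that marks myeloid cells, was lower with LPS on its brightest probe, A_55_P1977934. That probe read 8277 and 8596 on the untreated arrays, 5233 and 5471 after LPS, and 7198 and 6131 after inhibitor plus LPS, with no overlap between groups. The log2 change with LPS was -0.66 (95% confidence interval -0.94 to -0.38, adjusted p = 0.0233), and from LPS to LPS+inhibitor it was 0.31 (adjusted p = 0.177). The size and the call depend on scaling: with 75th percentile scaling the change was -0.22 (adjusted p = 0.1), or -0.73 relative to the median of all probes. The call was also lost without either untreated or either LPS array, with adjusted p from 0.0809 to 0.118.

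The other Itgam probes were not called. A_55_P1977929, whose LPS arrays at 2618 and 2841 also lay below the untreated arrays at 3230.1 and 4465, changed by -0.48 (adjusted p = 0.228), and A_55_P1977926 by -0.00 (adjusted p = 1). The last of these probes lies 48135 bases before A_55_P1977929 on the chromosome and was the dimmest, at 98.4 to 126. The brightest probe begins with a run of 20 bases of CA repeat, which other transcripts can share, and whether such transcripts add to its signal was not tested. Its first 30 bases, from chr7:135261755-135261814 of mm9, have the repeat in capitals.
Itgam A_55_P1977934, first 30 bases: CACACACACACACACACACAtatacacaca

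Itgax, the CD11c chain, was called in no comparison, and its replicates spread widely. It read 3531 and 7535 without treatment, 3099 and 6006 after LPS alone, and 4441 and 6068 when the inhibitor came first, so replicate 1 was below replicate 2 in every group. In the fit without the replicate number the log2 change with LPS was -0.26. Its 95% confidence interval, -1.74 to 1.23, leaves room for a rise or a fall of over 2-fold. Between arrays of the same number the differences were closer, at -0.19 and -0.33. The change was called in 0 of the 13 alternatives, the fit with the replicate number among them. The shared beta chain Itgb2 was bright, at 19903 and 24992 untreated, 14560 and 16680 with LPS, and 22373 and 21028 with LPS+inhibitor. Its LPS arrays were the lowest of the 6. The changes were -0.52 with LPS (adjusted p = 0.103) and 0.48 with the inhibitor (adjusted p = 0.162), and both missed the threshold. With 75th percentile scaling, where the median of all probes was 0.51, the first was 0.06, or -0.45 relative to that median. With normexp background correction both changes were called, at -0.54 and 0.55 (adjusted p = 0.0213 and 0.0304).

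Of the subunits that pair with Itgb1, Itga4 followed the course of Itgal. Its brightest probe, A_55_P2040026, read 3271 and 3193 on the untreated arrays, 10955 and 11522 after LPS, and 1637 and 2606 after inhibitor plus LPS. The inhibitor arrays lay below all other arrays, the untreated ones included. LPS raised Itga4 3.48-fold (log2 change 1.80, SE 0.24, adjusted p = 0.0173), and with the inhibitor it fell by 2.44 log2 units (adjusted p = 0.02). The difference between LPS+inhibitor and untreated cells, -0.65 (95% confidence interval -1.32 to 0.03), was not called (adjusted p = 0.212). It was called without LPS+inhibitor replicate 2, at -0.98 (adjusted p = 0.0282).

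The second Itga4 probe, A_66_P140103, gave 2.15 with LPS (adjusted p = 0.0157) and -2.64 with the inhibitor (adjusted p = 0.022). On both Itga4 probes either call was lost without either untreated or either LPS array, and the inhibitor call also with only the 2 groups compared (adjusted p = 0.0729 and 0.075). That of A_66_P140103 was lost with the replicate number in the fit too (adjusted p = 0.0512). Over the 13 alternatives the brightest probe's adjusted p ran from 0.00163 to 0.0941 with LPS and from 0.00123 to 0.083 with the inhibitor. A_66_P140103 maps across an intron, over 1131 bases at chr2:79153985-79155115 of mm9 on the plus strand, so its sequence below reads the spliced transcript.
Itga4 A_66_P140103: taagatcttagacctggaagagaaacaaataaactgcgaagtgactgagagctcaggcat

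Itga5, the fibronectin receptor chain, rose with LPS and was not lower with the inhibitor. It read 785 and 1118 without treatment, 4219 and 3354 after LPS alone, and 4862 and 3322 when the inhibitor came first. Both treated groups lay above the untreated arrays and overlapped each other. The log2 change with LPS was 2.01 (SE 0.29, adjusted p = 0.0206), and LPS+inhibitor cells were 4.29-fold above untreated cells (adjusted p = 0.0239). The change from LPS to LPS+inhibitor was 0.10, with a 95% confidence interval of -0.71 to 0.91 (adjusted p = 0.935). Whether this differs from the fall of Itga4 or Itgal was not tested. The rise with LPS lost its call without either untreated or either LPS array, with adjusted p from 0.0621 to 0.0968, and the excess over untreated cells lost its call when any 1 array was left out, with only the 2 groups compared, and with the replicate number in the fit (adjusted p = 0.0506).

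Itgav, whose product binds vitronectin, rose with LPS on both probes and was partly lower with the inhibitor. A_51_P382484 read 746 and 741 on the untreated arrays, 3062 and 3137 after LPS, and 1279 and 1526 after inhibitor plus LPS. The replicates were close and the 3 groups did not overlap. LPS raised it 4.17-fold (log2 change 2.06, SE 0.10, adjusted p = 0.00343), with the inhibitor it fell by 1.15 (adjusted p = 0.0178), and it remained 1.88-fold above untreated cells (adjusted p = 0.0163). The other probe, A_55_P2039771, 2228 bases away, gave 2.71 with LPS (adjusted p = 0.00502) and a smaller change of -0.59 with the inhibitor, not called (adjusted p = 0.177). On this probe LPS+inhibitor cells were 4.35-fold above untreated cells (adjusted p = 0.0108), a call kept in all 13 alternatives. The rise with LPS held in all 13 alternatives on both probes, and the fall of A_51_P382484 in 8 of 13. That fall, and the excess of this probe over untreated cells, lost their calls without either untreated or either LPS array and with only the 2 groups compared.

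Itgb1 itself gave small differences. Its brightest probe, A_66_P113059, read 3592 and 4261 without treatment, 5319 and 5600.2 after LPS alone, and 4667 and 4829 when the inhibitor came first. The untreated arrays were the lowest, and the log2 change with LPS, 0.48, was not called (adjusted p = 0.0556); with 75th percentile scaling it was 0.83 (adjusted p = 0.0069), or 0.33 relative to the median of all probes. It was also called with normexp and with dim probes left out (adjusted p = 0.0152 and 0.0392). The second probe, A_52_P351816, was called, at 0.64 (95% confidence interval 0.33 to 0.96, adjusted p = 0.0325), and lost the call with the replicate number in the fit (adjusted p = 0.051), in the deposited table, and without either untreated or either LPS array. The changes with the inhibitor were -0.20 and -0.19 on these probes and neither was called.

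**Figure D2:**
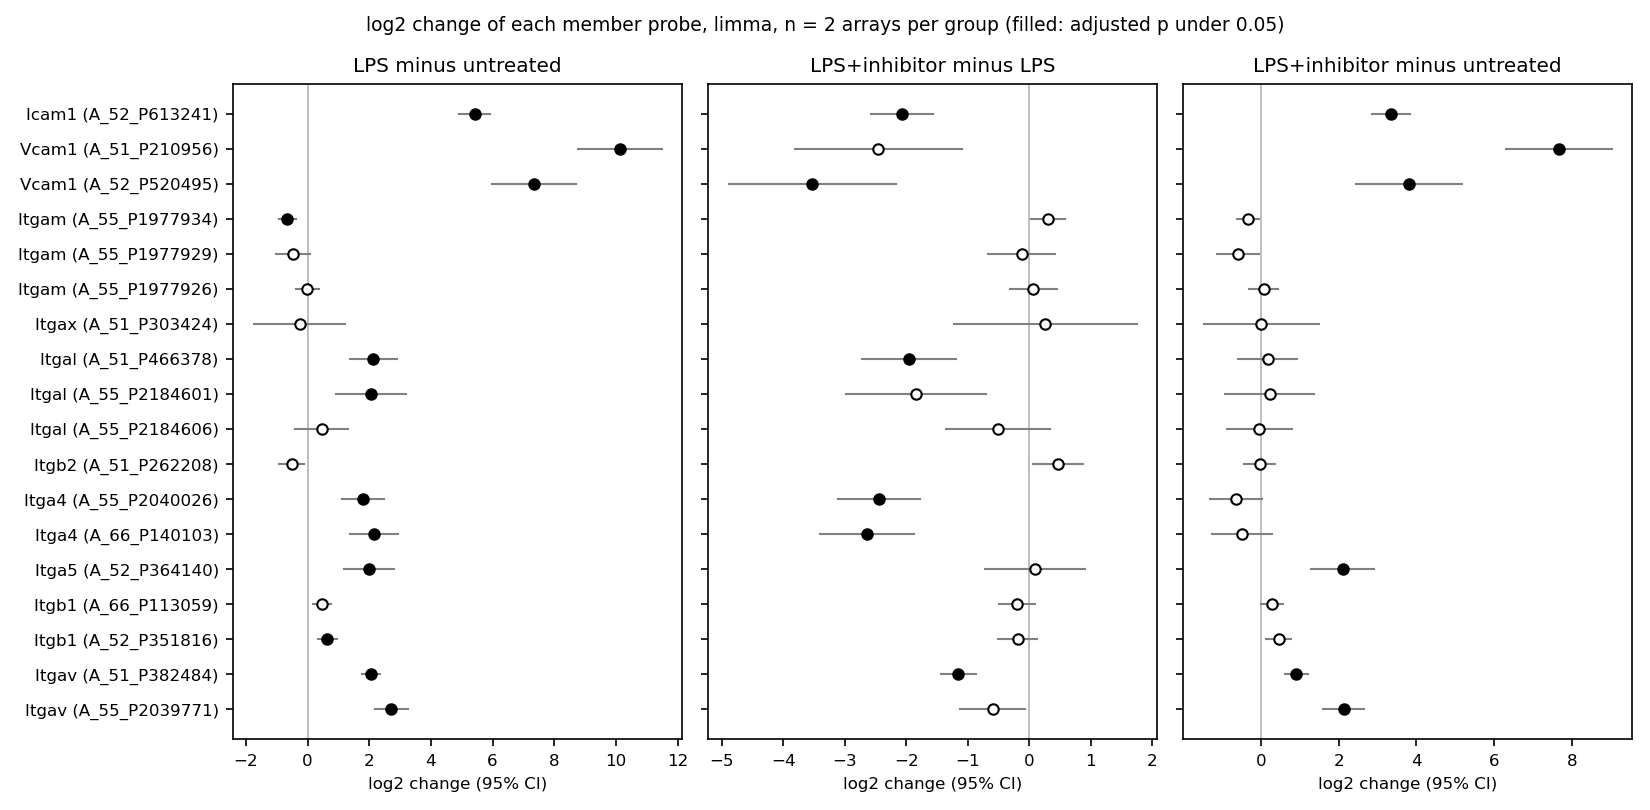
The log2 change of each of the 18 probes in the 3 comparisons, with 95% confidence intervals from the limma fit (n = 2 arrays per group); filled points had an adjusted p under 0.05. Values for Vcam1 against untreated cells are fitted values and not bounds. Itga5 sits at 2.01 with LPS and at 0.10 from LPS to LPS+inhibitor, while both Itga4 probes lie below -2 in the middle panel.

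The genes nearest in pattern were sought among 12310 genes with a RefSeq name and signal well above background, by the root mean square difference of log2 profiles over the 6 arrays after each was centred on its own mean. For Icam1 the nearest was Gbp7, at 0.09, followed by Gbp3 and Marcksl1, at 0.20 and 0.24. For Vcam1 they were Cd69, Gbp5 and Ptgs2, at 0.35, 0.47 and 0.56, distances that rest in part on untreated values not told from background. Itgal was nearest to Dennd6b, Hmgn3 and F11r, at 0.11, 0.11 and 0.12, and F11r encodes JAM-A, a junctional protein that is itself a ligand of the Itgal product. Itga4 was nearest to Alpk1, Stard7 and Cyp39a1, at 0.10, 0.14 and 0.15. Itga5 was nearest to Tmem171, Rgl1 and Junb, at 0.18, 0.19 and 0.20; Junb changed by 2.07 with LPS and by -0.19 from LPS to LPS+inhibitor. The neighbours of Itgax were Spp1, Ak8 and Rhd, at 0.15, 0.15 and 0.16, and what they share with it is the gap between replicates 1 and 2: Spp1 read 95179 and 194308 in untreated cells.

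Start-site sequence was described for the 7 of the 10 genes with a window in the RefSeq promoter table (GRCm38.p6): Icam1, Itgam, Itgax, Itga4, Itga5, Itgb1 and Itgav. Vcam1, Itgal and Itgb2 were not matched to it. The 250 bases before each start were searched on both strands. The NF-kappaB consensus of 10 letters was in 0 of the 7 windows and in 3.9% of the 32851 windows of the table, and the core of the interferon-stimulated response element was in 0 of 7 and 2.98%. The looser GGNNNTTCC, a motif added after the sequences had been seen, was in 3 of 7 (Icam1, Itga5 and Itgb1) and in 15.7% of all. The PU.1 core GAGGAA was in 4 of 7 (Itgam, Itga5, Itgb1 and Itgav) and in 23.3% of all. A match describes the letters and not a bound site, and the absence of one says only that these letters are not in the window.

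Shown are the stretches around the matches of Icam1, which rose and was partly lower with the inhibitor, of Itga5, which rose and was not lower, and of Itgam, which did not rise. Capitals mark matches to GGNNNTTCC or GAGGAA on either strand. The Icam1 stretch is chr9:21015767-21015884 on the plus strand, with GGNNNTTCC from 153 bases and, on the opposite strand, from 84 bases before the start. The Itga5 stretch is chr15:103366893-103366948 on the minus strand, with GGNNNTTCC from 137 bases and the PU.1 core, on the opposite strand, from 127 bases before the start. The Itgam stretch is chr7:128062536-128062639 on the plus strand, with the PU.1 core from 84 bases and, on the opposite strand, from 15 bases before the start.
Icam1: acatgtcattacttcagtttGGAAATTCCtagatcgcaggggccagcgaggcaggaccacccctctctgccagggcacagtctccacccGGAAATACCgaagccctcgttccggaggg
Itga5: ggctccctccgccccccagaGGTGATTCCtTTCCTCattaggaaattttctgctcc
Itgam: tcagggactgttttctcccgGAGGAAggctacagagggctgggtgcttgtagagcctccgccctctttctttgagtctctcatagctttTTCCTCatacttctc

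**Figure D3:**
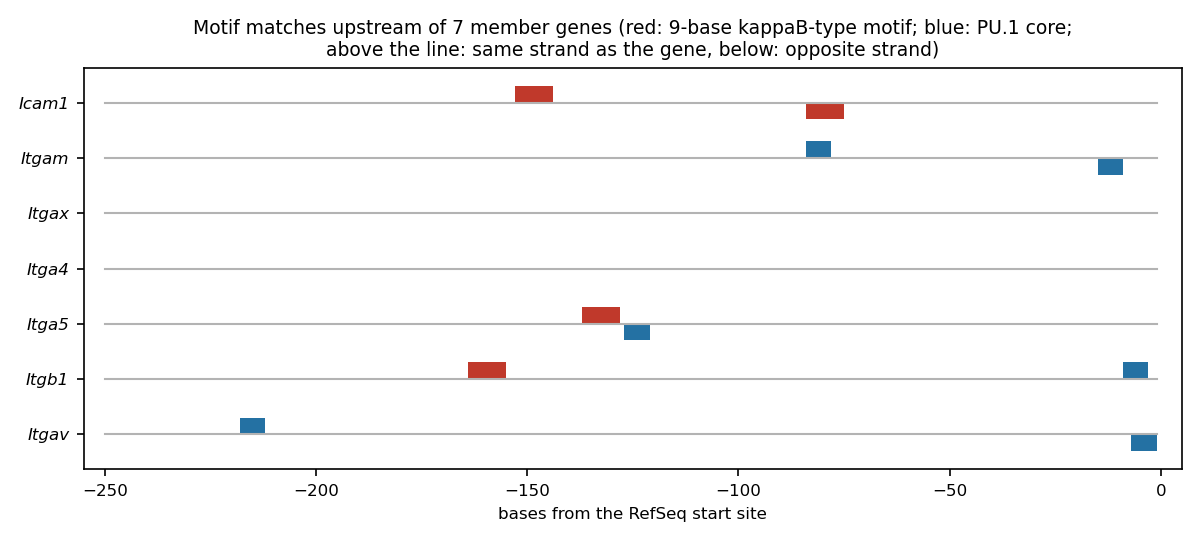
Positions of motif matches in the 250 bases before the RefSeq start site of 7 genes (horizontal axis, bases from the start). Red bars are matches to the 9-base motif searched after the sequences had been seen and blue bars the PU.1 core, drawn above the line on the gene's strand and below it on the opposite strand; Itgax and Itga4 have none.

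Beyond these 10 genes, 4 related lists were measured. Their counts stand beside 7.95% of all genes higher and 12.7% lower with LPS, and 5.51% and 4.27% from LPS to LPS+inhibitor. Signal was well above background on both arrays of some group for 11 of 19 other integrin subunits, 13 of 21 other ligands, 28 of 32 activation and signalling genes and 8 of 10 selectins and other receptors. Of 19 other integrin subunits, 1 rose with LPS and 1 fell, with a median log2 change of -0.47. The riser was Itgb8, the partner of Itgav in activating latent TGF-beta. It was not well above background in untreated cells, read 155 and 165 with LPS, and rose at least 10.6-fold (adjusted p = 0.03). Itga6, a laminin receptor chain, fell by 1.47 with LPS (adjusted p = 0.0228) and lay at -1.66 in LPS+inhibitor against untreated cells (adjusted p = 0.0222). From LPS to LPS+inhibitor 0 of the 19 were called in either direction by limma, and the median was -0.00.

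Of 21 other integrin ligands, 5 rose with LPS and 1 fell (median 0.13), and with the inhibitor 4 were lower than with LPS alone and 0 higher (median -0.10). Icam5 and Icam4, of the ICAM family, read 125 and 135, and 113 and 117, on the LPS arrays, and every untreated and LPS+inhibitor array was at 48.3 or below. Icam5 rose by 2.03 with LPS (adjusted p = 0.00299) and fell by 1.93 with the inhibitor (adjusted p = 0.0104), and Icam4 fell by 1.28 with the inhibitor (adjusted p = 0.0113). F11r rose by 2.15 (adjusted p = 0.0115) and fell by 1.91 (adjusted p = 0.0285). Jam2 rose by 3.29 with LPS (adjusted p = 0.0226). Its inhibitor arrays read 75.1 and 198, and the change from LPS, -0.81, was not called (adjusted p = 0.502). Adam15 fell with LPS, by 0.69 (adjusted p = 0.0156), and was also lower in LPS+inhibitor than in untreated cells, at -0.48 (adjusted p = 0.045), as was Icam2, at -0.66 (adjusted p = 0.0343).

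Of 32 genes of integrin activation and signalling, 9 rose and 5 fell with LPS (median 0.10), and 1 was higher and 7 lower with the inhibitor than with LPS alone (median -0.28). Src and Lyn are kinases that relay signals from ligated integrins. Src, not well above background in untreated cells, rose at least 6.94-fold (adjusted p = 0.00491), and Lyn rose by 1.83 (adjusted p = 0.0206). With the inhibitor Src and Lyn fell by 1.57 and 1.56 (adjusted p = 0.0296 and 0.0499), and Skap2, an adaptor of integrin activation, was the riser, by 0.41 (adjusted p = 0.0422). Of the genes of this list called lower with LPS, Rassf5, an effector of the GTPase Rap1, changed by -1.64 (adjusted p = 0.0162), Cytip by -1.02 (adjusted p = 0.0354) and Tln1, the talin that binds beta chains, by -0.63 (adjusted p = 0.0335). Against untreated cells Rassf5 and Tln1 were also lower in LPS+inhibitor cells, at -1.49 and -0.64 (adjusted p = 0.026 and 0.0401), as was Ilk, at -0.65 (adjusted p = 0.0167), and Src was at least 2.33-fold higher (adjusted p = 0.027).

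Of 10 selectins and other adhesion receptors, 3 rose and 2 fell with LPS (median 0.31), and 3 were lower with the inhibitor and 0 higher (median -0.29). Of those 3, Selp was well above background on 1 of the 6 arrays (-1.86, adjusted p = 0.0425), and its bound is 1.16-fold. With genes that have only a bound set at that bound, these medians were 0.31 and -0.24. Sele, the E-selectin known from endothelium, read 122 and 146 with LPS and was not well above background in the other groups; it rose at least 8.87-fold (adjusted p = 0.00926) and adding the inhibitor took it down 6.87-fold or more (adjusted p = 0.0259). Cd44, the hyaluronan receptor, read 4691 and 4933, then 22013 and 21094, then 11709 and 11934, rising by 2.16 (adjusted p = 0.00249) and falling by 0.87 with the inhibitor (adjusted p = 0.0141). It stayed 1.30 above untreated cells (adjusted p = 0.00543). The selectin ligands Glg1 and Selplg fell with LPS, by 0.81 and 0.49 (adjusted p = 0.00699 and 0.0185), and were lower than in untreated cells with LPS+inhibitor too, at -1.12 and -0.53 (adjusted p = 0.00681 and 0.02).

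**Figure D4:**
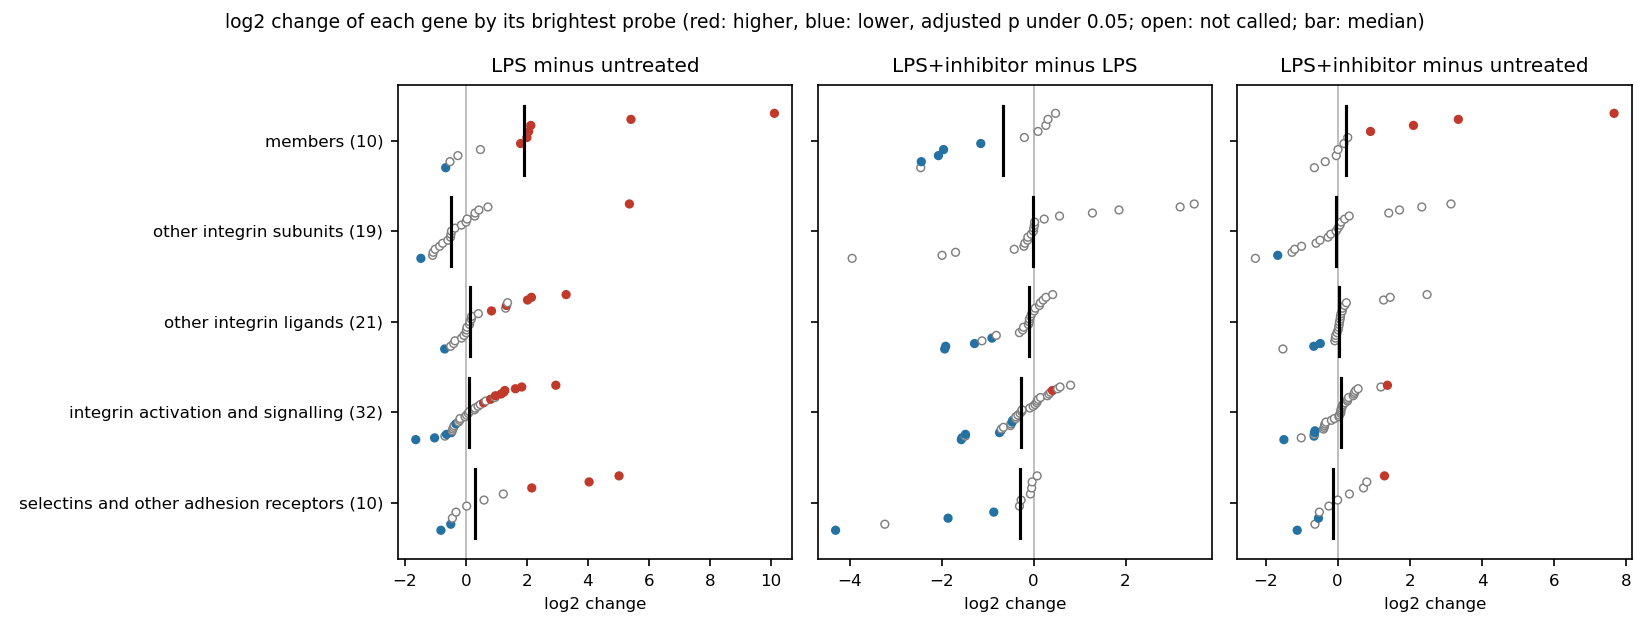
The log2 change of each gene, by its brightest probe, for the 10 genes described here (members) and 4 related lists in the 3 comparisons; each point is a gene, black bars are medians, red and blue points were called higher and lower. Of the 10 members, 6 are red with LPS, 4 are blue from LPS to LPS+inhibitor, and 8 of the 19 other integrin subunits had no group with clear signal on its 2 arrays.

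Markers of other cells moved with some of these results, and their part in them was not tested. Fewer cells of a type and less RNA per cell cannot be told apart in bulk RNA. The summed intensity of 7 fibroblast markers was 71.4 and 88.2 untreated, 588 and 559 with LPS, and 105 and 106 with LPS+inhibitor. Pdgfrb, the brightest by mean log2 signal, made up most of the sum on the LPS arrays alone, at 474 and 476, and rose by 5.29 (adjusted p = 0.0321); 0 of the 7 were well above background on all 6 arrays. The sum of 11 lymphocyte markers was 1867 and 1387, then 3805 and 3674, then 1846 and 1523; Cd3e was the brightest by mean log2 signal and was not called (log2 change 0.02 with LPS, adjusted p = 0.981), Lck rose by 4.23 and was the brightest on the LPS arrays, at 1961 and 2518, and Cd3g and Cd8a were not well above background on any array. With the inhibitor Lck fell by 2.47 (adjusted p = 0.0161). Pax5, well above background only on the LPS+inhibitor arrays, was called higher than with LPS (at least 1.39-fold, adjusted p = 0.0244) and than in untreated cells (at least 2.07-fold, adjusted p = 0.0105). The sum of 9 neutrophil markers was 5254 and 6965, then 5875 and 11816, then 6220.01 and 9802, higher in replicate 2 of every group; Elane was the brightest by mean log2 signal and 6 of the 9 were well above background on all arrays. S100a9 and S100a8 were higher in replicate 2 of every group, S100a9 at 205 and 1692, 745 and 5321, and 326 and 3046. Ly6g and Mpo were lower in replicate 2 of every group, Ly6g at 1103 and 555, 1441 and 809, and 898 and 540. The 6 dendritic cell markers summed to 45054 and 38061, then 25343 and 24862, then 51415 and 34665, nearly all from Siglech, which was not called with LPS (-0.73, adjusted p = 0.122). Zbtb46, the called one, rose at least 5.65-fold with LPS (adjusted p = 0.00435) and was at least 4.41-fold above untreated cells with LPS+inhibitor (adjusted p = 0.00806), with Flt3, Xcr1, Clec9a and Cd209a not well above background on any array. The 6 endothelial markers summed to 7184 and 5369, then 7143 and 6199, then 9850.4 and 7199, mostly Kdr. Esam, the called one, was well above background only on the LPS+inhibitor arrays, at 37.8 and 70.8, and at least 2.31-fold above LPS (adjusted p = 0.0402). The 7 mast cell and megakaryocyte markers summed to 337 and 202, then 292 and 162, then 363 and 237, Ppbp being the brightest.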

How the data were processed

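Per the file headers, the deposited scanner files hold spot intensity from Agilent Feature Extraction 10.7.3.1 on 6 single-colour arrays, already background-adjusted. A second table from the authors is in log2 units, quantile-normalized with limma per the study's methods; its background correction was not stated, its medians per array ran from 5.07 to 5.10, and it was used as an alternative. The processed signal was taken to log2 and quantile-normalized over all 59305 non-control spots per array. Spots marked as outliers (119 to 172 per array, 0 of them for the 10 genes) were then left out, and the rest were averaged per probe. A linear model with 3 groups was fitted in limma 3.58.1 (R 4.3.3) with empirical Bayes moderation (3 residual and 1.05 prior degrees of freedom). Benjamini-Hochberg adjustment was over 55680 probes. A trial of the fit on simulated data had 200 probes changed by 3 log2 units and equal spread in the groups. Smaller changes and unequal spread were not covered by that trial. From 42.2% to 46.3% of spots per array were well above background and 0 were saturated.

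"At least" folds set the brighter group's mean against the dim group's, each dim array at the higher of its own signal and the lowest signal well above background. Gene symbols came from the files, updated through RefSeq accessions for 26762 probes. The 10 genes are named with every probe; from each related list some of up to 3 called genes per direction and comparison with the largest change, separate groups and signal above background; for 6 genes the 3 nearest in pattern; of each marker list the brightest gene. Others named, such as Lck, Icam4 on its LPS arrays and Junb, were singled out after their values were seen. Members and lists were chosen with earlier results of these data known. All arrays lie on 1 slide and 1 scan. The rows of the slide hold 1 group each, so row and treatment cannot be told apart. Replicate 1 of every group lies in slide column 1 and replicate 2 in column 2, so column and replicate number cannot be told apart either. Alternatives were 75th percentile scaling, normexp background correction, the deposited table, dim probes left out, outlier spots kept, a replicate block, only the 2 groups compared, any probe of a gene, and each array left out. Sequences and figures were made with Python 3.11.15, pandas 2.3.3 and matplotlib 3.10.9.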

Additional observations from a re-analysis of the deposited data

How the results depend on the processing

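Of the log2 changes of the 18 probes, those called as reported kept call and direction in 227 recomputed values and lost the call in 85, with 0 turned; those not called stayed so in 344, gained a call in 17 and changed sign in 29. Genes higher with LPS numbered 3 to 6 with 1 array left out (6 as reported) and genes lower 0 to 1. With 75th percentile scaling genes lower with LPS were 0, called probes 27437 in LPS against untreated (9895 as reported) and 26542 in LPS+inhibitor against untreated (7233), where the share of higher calls went from 43.5% to 82.7% and the median log2 change of all probes was 0.55. With normexp, 2 genes were lower with LPS and 1 (Itgb2) was higher with the inhibitor; called probes from LPS to LPS+inhibitor were 7027 against 4704 as reported. They were 7059 with dim probes left out. With only the 2 groups compared, genes lower with the inhibitor were 0 and called probes 0 (at an unadjusted p under 0.05, 6051 higher and 5206 lower), and against untreated cells LPS+inhibitor had 2 genes higher and 4684 called probes. These fits have fewer arrays. Leaving out 1 array of the group not compared nearly repeats them, since the lone array adds no spread, and is no separate check. With 1 array left out, where the lone array is assumed to vary like the other groups, called probes were 4017 to 9177 with LPS, 0 to 4558 from LPS to LPS+inhibitor and 1557 to 5549 in LPS+inhibitor against untreated; genes lower with the inhibitor were 0 to 3, higher against untreated 2 to 3 and lower 0 to 1 (Itga4).

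The replicate numbers are shared by the groups, with 2 pairs per comparison, and the labels do not say that a number pairs samples; replicate differences correlated at 0.40 to 0.47 between groups over 20705 probes. With a replicate block, 10412, 3543 and 7575 probes were called in the 3 comparisons, and 6 of the 10 genes were higher and 1 lower with LPS, 4 lower with the inhibitor, and 3 higher against untreated cells. A slide block was not run, since all arrays lie on 1 slide.

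Sign changes, all in values not called: with 75th percentile scaling, Itgax 0.0836 and Itgb2 0.0616 with LPS, Itga5 -0.0574 from LPS to LPS+inhibitor, and Itgal A_55_P2184606 0.23 and Itgb2 0.33 against untreated. That scaling raised the median of all probes, to 0.51 with LPS and 0.55 against untreated. Relative to it Itgax and Itgb2 were -0.42 and -0.45 with LPS, their sign as reported. Against untreated Itgal A_55_P2184606 and Itgb2 were then -0.32 and -0.22, also as reported. Others against untreated turned instead, among them Itgal A_51_P466378 at -0.35 and Itgax at -0.32. With normexp, Itgam A_55_P1977926 gave 0.0274 with LPS, and Itgal A_55_P2184606 0.0259 and Itgb2 0.00788 against untreated. In the deposited table Itgam A_55_P1977926 gave 0.0217 and Itgal A_55_P2184606 0.20. With 1 array left out, ranges with LPS were -0.18 to 0.18 (Itgam A_55_P1977926) and -0.80 to 0.29 (Itgax); from LPS to LPS+inhibitor -0.24 to 0.00832 (Itgam A_55_P1977929), -0.11 to 0.25 (Itgam A_55_P1977926), -0.21 to 0.74 (Itgax) and -0.18 to 0.37 (Itga5); against untreated -0.54 to 0.56 (Itgax), -0.078 to 0.43, -0.16 to 0.59 and -0.38 to 0.29 (Itgal A_51_P466378, A_55_P2184601 and A_55_P2184606) and -0.20 to 0.12 (Itgb2). The causes were not tested.

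The limits are 2 arrays per group, 3 residual degrees of freedom, and signal near background for Vcam1 in untreated cells and for 1 Itgal probe.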
